A study of Homo sapiens with 12 samples.

Results

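The genes described here encode the chains of collagens and laminins, which build the extracellular matrix, and the integrins, which are the cell-surface receptors that hold on to it. They are the rows of the deposited expression table whose current gene symbol is that of a numbered collagen chain (COL, a number, A, a number), a laminin chain (LAMA, LAMB or LAMC with a number) or an integrin subunit (ITGA or ITGB followed by a number, V or X). The rule found 62 genes among 14029, of which 33 are collagen, 10 laminin, 12 integrin alpha and 7 integrin beta genes. A table of gene names lists 77 symbols of this form, and the remaining ones were not analysed here.

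The cells were ES-2, an established line of human ovarian cancer, and their polyadenylated RNA was sequenced. Those with the genotype SRMS knockdown expressed a short hairpin RNA (shRNA) against SRMS, a non-receptor tyrosine kinase. Those with the genotype WT carried the control vector, PLKO. Both were given cisplatin, a DNA-crosslinking platinum drug, at 15 µM for 8 hours, with 3 libraries each, so every difference below is one between constructs in drug-treated cells. The labels do not say whether cells were a pool or 1 clone, how many hairpins were used or whether replicates were separate cultures, so p-values measure only the spread between these libraries. The other 6 of the 12 samples, given PBS, were not analysed here.

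Collagens are trimers of alpha chains wound into a triple helix. Fibrillar collagens form cables, type IV collagen forms the net of basement membranes, and smaller classes decorate or anchor these. Laminins are cross-shaped trimers of an alpha, a beta and a gamma chain and are the other main component of basement membranes. An integrin is a heterodimer of an alpha and a beta subunit, in which the alpha subunit largely sets the ligand (collagen, laminin, or the arginine-glycine-aspartate motif of fibronectin and vitronectin) and ITGB1 is the most widely shared beta partner. In ovarian cancer these systems are known for their part in attachment to the peritoneum and in drug resistance that depends on contact with matrix.

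Reads recovered for the listed genes came to 28009232 to 38072051 in the libraries labelled SRMS shRNA and to 29072793 to 56855428 in the vector libraries. The targeted gene SRMS had signals of 0.328, 1.07 and 0.863 in the libraries labelled SRMS shRNA and 0.0669, 0.306 and 0.819 with the vector, so no fall was seen (log2 fold change 0.52, 95% interval -0.15 to 1.19, limma adjusted p = 0.168). SRMS was counted in only 9, 39 and 27 reads in the libraries labelled SRMS shRNA and 2, 14 and 47 with the vector. The groups overlapped, so its level is uncertain. SRMS was called higher without vector replicate 3 (0.84, limma adjusted p = 0.0281), without SRMS shRNA replicate 1 (0.79, 0.0245) and with the replicate number as a block (0.52, 0.00782). It was not called after removal of the length and GC trend under the block (0.235, limma adjusted p = 0.21). The groups are called by their labels throughout. Signal means reads scaled as for CPM, by an effective library size. Of 13 ovarian and epithelial markers 6 were measured, and KRT7, KRT8 and KRT18 were abundant while PAX8 and CLDN4 were under 1 in every library. All 6 mesenchymal markers were measured, with summed signals of 6189 to 7028 in the libraries labelled SRMS shRNA and 5204 to 5786 with the vector, nearly all of it VIM. VIM was higher (log2 fold change 0.29), whereas the 5 other markers were called lower, among them ZEB2 (-0.51), ZEB1 (-0.47), TWIST1 (-0.24) and CDH2 (-0.17), and the list's median was -0.28. Marker lists of leukocytes, endothelium and fibroblasts were at or below 4.41, 8.36 and 151 summed in the libraries labelled SRMS shRNA and at or below 1.71, 16.8 and 132 with the vector. The fibroblast sum was mostly THY1, and the part of other cells in these results was not tested.

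Type IV collagen genes are arranged head to head, with partner genes reading away from a shared stretch of DNA, and these stretches are shown because the partners did not all move together. The LAMA5 promoter is shown because LAMA5 had the largest difference of the 62 genes. The sequences are from RefSeq (GRCh38.p14), where 45 of the 62 genes had a promoter entry. Capitals mark GC boxes (GGGCGG) and CCAAT boxes (CCAAT), read on both strands; TATAAA was searched for as well and is in none of them. The stretch of 126 bases between the RefSeq starts of COL4A1 and COL4A2 (chr13:110307158-110307283) is on the COL4A2 strand. The other entries are the 250 bases before the start of COL4A5 (chrX:108439588-108439837, plus strand), COL4A6 (chrX:108439459-108439708, minus strand) and LAMA5 (chr20:62367313-62367562, minus strand).
COL4A1 to COL4A2: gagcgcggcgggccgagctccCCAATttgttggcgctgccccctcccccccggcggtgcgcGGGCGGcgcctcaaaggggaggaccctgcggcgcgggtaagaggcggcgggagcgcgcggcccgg
COL4A5: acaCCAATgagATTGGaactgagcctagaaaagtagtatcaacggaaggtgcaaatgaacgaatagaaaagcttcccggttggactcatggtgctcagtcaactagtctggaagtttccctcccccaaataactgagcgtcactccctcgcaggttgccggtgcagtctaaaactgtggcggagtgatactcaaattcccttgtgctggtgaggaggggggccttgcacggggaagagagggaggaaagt
COL4A6: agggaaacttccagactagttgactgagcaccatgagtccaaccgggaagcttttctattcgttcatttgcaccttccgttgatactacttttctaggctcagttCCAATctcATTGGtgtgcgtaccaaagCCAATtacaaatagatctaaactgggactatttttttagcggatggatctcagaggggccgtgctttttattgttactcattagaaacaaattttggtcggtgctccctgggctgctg
LAMA5: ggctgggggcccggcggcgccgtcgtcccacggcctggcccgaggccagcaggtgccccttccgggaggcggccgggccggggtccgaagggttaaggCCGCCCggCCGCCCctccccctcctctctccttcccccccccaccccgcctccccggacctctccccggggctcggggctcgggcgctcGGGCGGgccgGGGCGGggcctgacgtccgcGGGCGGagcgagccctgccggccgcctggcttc

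The COL4A1 to COL4A2 stretch has 20 CpG pairs, a GC content of 80.2% and 1 box of each kind. Of 34941 RefSeq promoters, 34.5% hold a GC box and 21.1% a CCAAT box in the 126 bases before the start. COL4A5 and COL4A6 lie 379 bases apart, so their windows overlap, and have 8 and 7 CpG pairs and only CCAAT boxes, 2 and 3. In the 250 bases before LAMA5 there are 5 GC boxes and 32 CpG pairs. A GC box is in 42.5% and a CCAAT box in 32.0% of RefSeq promoters over 250 bases, where the median is 11 CpG pairs.

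Between the constructs, 34 of the 62 genes passed the threshold (limma adjusted p under 0.05, adjusted over all 14029 genes). In the SRMS shRNA group 16 of them were higher and 18 were lower. Over all genes tested 56.8% passed, 26.6% higher and 30.2% lower, so the number of calls among these genes is near the background. The groups were fully separated in 38 of the 62, against 62.7% of all genes. The largest differences were the fall of LAMA5 and the rises of COL7A1, COL11A2, ITGB7 and ITGB5, and LAMA5 alone reached an absolute log2 fold change of 1. Fold changes are on the scale of log2(signal + 0.5) and understate the change of low genes. Ratios of means were 2.02 for COL7A1, 2.09 for COL11A2, 2.76 for ITGB7 and 5.95 for COL20A1, though none of them reached 1 on that scale. Of the 19 genes with a mean signal under 1, COL20A1 and ITGB7 passed, and the calls among the 43 others were 14 higher and 18 lower. The share called over all genes with a mean signal of at least 1 was not computed, so these counts have no matching background. In bulk RNA, fewer cells that express a gene and less RNA per cell cannot be told apart.

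**Figure D1:**
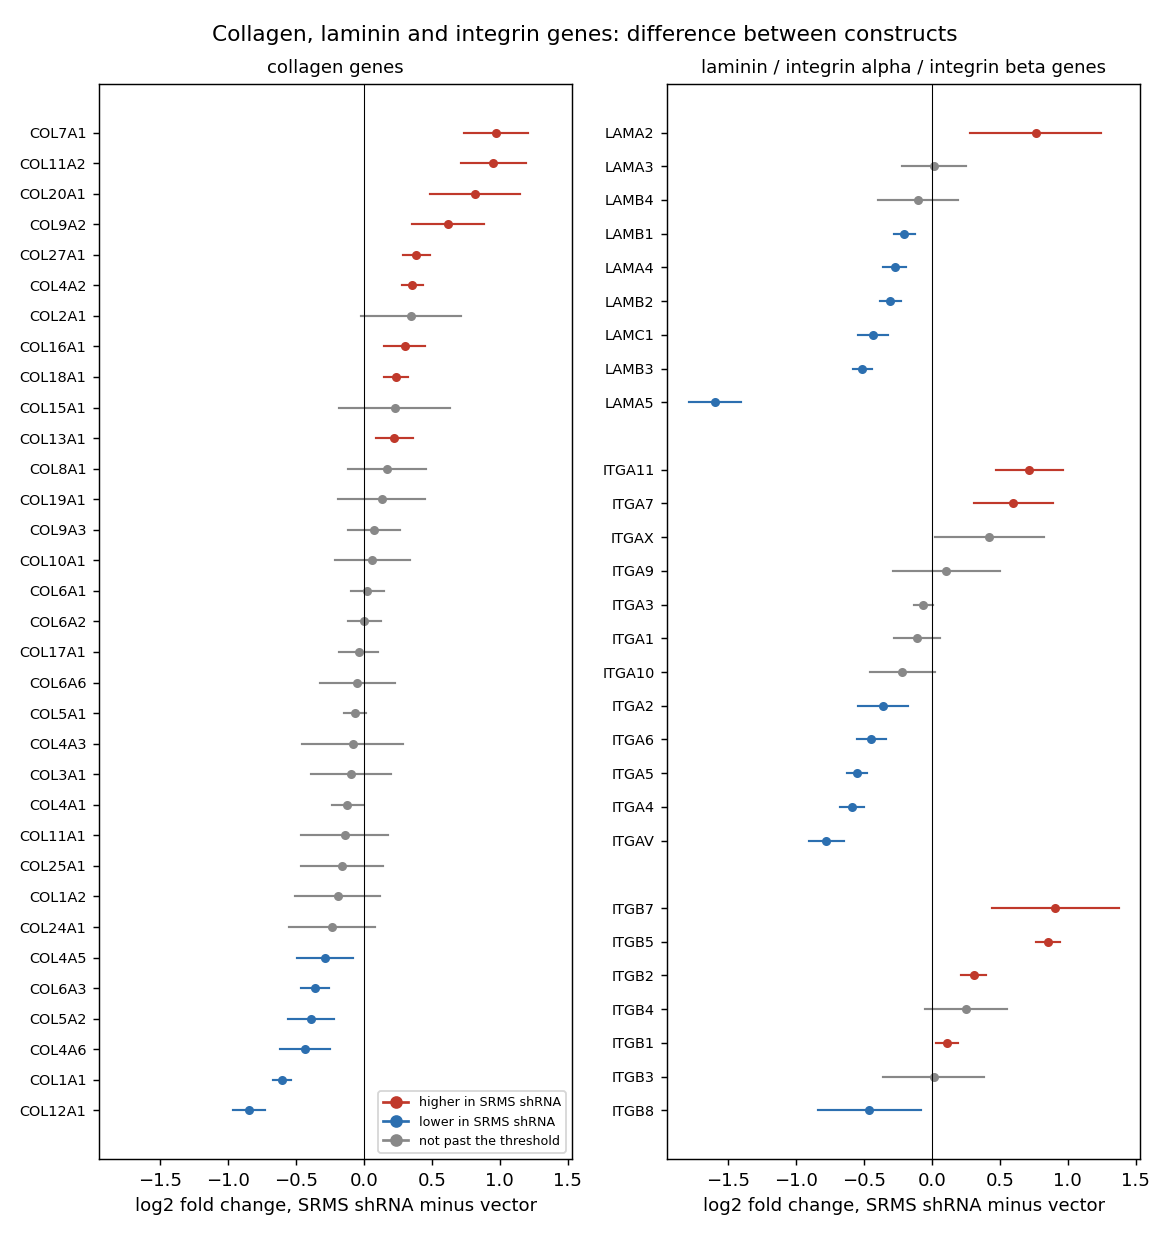
Log2 fold change of signal + 0.5 (SRMS shRNA minus vector, 3 libraries each) for 61 of the 62 genes; bars are 95% intervals from limma and colours mark the adjusted p threshold of 0.05. Collagens spread to both sides of 0, 6 of 10 laminins are called lower, and ITGAV and ITGB5, which pair, lie on opposite sides.

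Matrix chains and their receptors had similar balances. Of 43 collagen and laminin genes 10 rose and 12 fell (median log2 fold change -0.05). Of 19 integrin genes 6 rose and 6 fell (median 0.01). Over all genes the median was 0.00. The families differed more than this division shows. Collagens had 9 higher and 6 lower, laminins 1 and 6, integrin alpha genes 2 and 5 and integrin beta genes 4 and 1. Their median log2 fold changes were 0.00, -0.24, -0.16 and 0.25.

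These genes have long transcripts, and the constructs differed by transcript length across the whole table. The transcripts of the 62 genes had a median of 5730 nt against 3055 nt for all genes, and 39 of them were among the longest 20% of genes. Among those longest genes 269 (9.59%) rose and 1527 (54.4%) fell, and their median difference was -0.23 on the log2 scale. Of the 10 laminin genes, 8 were among these longest genes. The laminin shares of 10% higher and 60% lower were near those of the longest genes. Across the 62 genes, which share the same libraries, length and log2 fold change had a Spearman rho of -0.34, against -0.46 over all genes. Under the replicate block, after removal of the length and GC trend, 23 of the 62 were higher and 15 lower, against 28.7% and 32.7% of all genes. The family medians then were 0.09 for collagens, -0.05 for laminins, -0.04 for integrin alpha and 0.28 for integrin beta genes. Median scaling of the libraries, which moved the median of all genes to 0.16, gave 25 higher and 15 lower, against 44.6% and 17.9% of all genes.

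**Figure D2:**
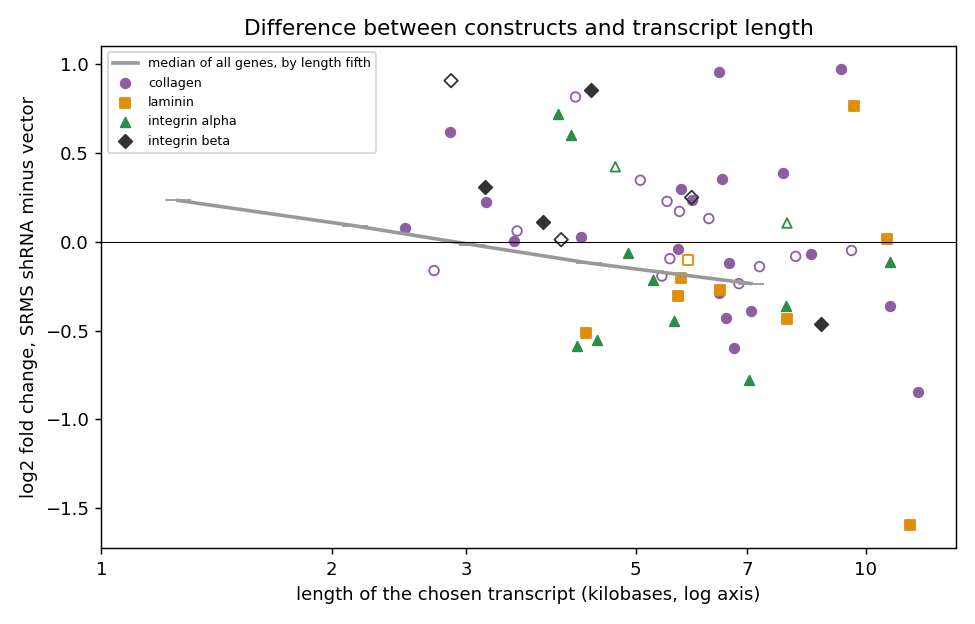
Log2 fold change (SRMS shRNA minus vector) against the length of 1 chosen transcript per gene, on a log axis, for 61 of the 62 genes by family; open symbols have a mean signal under 1. The grey line joins the medians of all genes in 5 bins of length, which go from 0.23 in the shortest to -0.23 in the longest, and the lowest laminin (LAMA5), integrin alpha (ITGAV) and collagen (COL12A1) points lie far below it while the 2 highest collagens (COL7A1 and COL11A2) lie far above.

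Fibrillar collagens were dominated by a single chain. COL1A1, the alpha-1 chain of type I collagen (ENSG00000108821, GRCh38 chr17:50183289-50201632, minus strand), had signals of 816, 820 and 813 in the libraries labelled SRMS shRNA and 1239, 1239 and 1236 with the vector. All 3 libraries labelled SRMS shRNA were lower than any vector library, and the log2 fold change was -0.60 (SE 0.0295, limma adjusted p = 2.96e-07). Per kilobase of transcript, COL1A1 made up 28.9% of the summed collagen level in the libraries labelled SRMS shRNA and 37.9% with the vector. COL1A2, which supplies the other chain of the usual type I heterotrimer, was counted in 0, 5 and 2 reads in the libraries labelled SRMS shRNA and in 6, 7 and 5 with the vector. COL3A1, the chain of type III collagen, had 5 reads in all, in vector replicate 2. These counts cannot show a difference for either gene at this depth.

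The type V chains, which nucleate type I fibrils, parted. COL5A2 had 29.4, 24.5 and 23.8 in the libraries labelled SRMS shRNA and 35.1, 33.5 and 33.4 with the vector (log2 fold change -0.39, limma adjusted p = 0.00138). COL5A1 had 102, 100 and 95.9 against 104, 105 and 103 with the vector, where the groups also did not overlap but the log2 fold change was only -0.07 (95% interval -0.15 to 0.02, limma adjusted p = 0.156). With the replicate block COL5A1 was called lower (limma adjusted p = 0.0467), but it was called higher both under median scaling (0.09, limma adjusted p = 0.0430) and after removal of the length and GC trend under the block (0.09, limma adjusted p = 0.00311), so its direction depends on the setting. COL5A2 stayed lower under those 2 settings, at -0.23 and -0.18.

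Of the other fibrillar chains, COL11A2 and COL27A1 were higher, at low or middle level. Over all 10 fibrillar chains 2 were called higher, 2 lower and 6 not called, with a median log2 fold change of -0.12. COL11A2, the alpha-2 chain of type XI collagen of cartilage (ENSG00000204248, chr6:33162681-33192499, minus strand), had 7.92, 7.09 and 6.08 in the libraries labelled SRMS shRNA and 3.48, 3.38 and 3.24 with the vector. The groups were well apart, and the log2 fold change was 0.95 (SE 0.107, limma adjusted p = 3.95e-05). Its partner chains COL11A1 and COL2A1 stayed under 1 in every library, and neither passed the threshold. COL2A1 (log2 fold change 0.35) was called higher under median scaling (limma adjusted p = 0.0229), with array weights (0.0459), after removal of the length and GC trend under the block (0.025), without SRMS shRNA replicate 2 (0.0308) and by edgeR (0.0416). COL27A1, a fibrillar chain of cartilage, had 39.9, 39.2 and 39.9 against 30.3, 30.4 and 29.8 with the vector (log2 fold change 0.39, limma adjusted p = 4.23e-05).

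Basement membrane collagen gave different results for neighbours that share a promoter stretch. COL4A2 (ENSG00000134871, chr13:110305812-110513209, plus strand) had 124, 127 and 123 in the libraries labelled SRMS shRNA and 96.0, 97.4 and 98.6 with the vector. Its rise had a log2 fold change of 0.36 (SE 0.0339, limma adjusted p = 1.37e-05). COL4A1 (ENSG00000187498, chr13:110148963-110307233, minus strand), which forms trimers with COL4A2, had 33.2, 33.6 and 33.4 against 34.1, 38.1 and 37.1 with the vector (log2 fold change -0.12, 95% interval -0.24 to -0.01, limma adjusted p = 0.0714). The sign of COL4A1 turned under median scaling (0.04) and after removal of the length and GC trend under the block (0.04), and it was called lower with the replicate block alone (limma adjusted p = 0.0177), with array weights (0.0113), without vector replicate 1 (0.0188) and without replicate 1 of both groups (0.00359).

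The ratio of COL4A2 to COL4A1 per kilobase was 3.82, 3.84 and 3.76 in the libraries labelled SRMS shRNA and 2.87, 2.60 and 2.71 with the vector, with no overlap. A two-sided exact permutation test of that ratio gave p = 0.1, the smallest that 3 against 3 libraries allow. The type IV genes and all partner ratios were chosen after their values were seen. By the annotation (GENCODE release 29) the COL4A1 and COL4A2 genes overlap on opposite strands at their starts, though no exon bases are shared.

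On the X chromosome the other head-to-head partners both passed toward lower values. COL4A6 had 13.9, 12.3 and 12.7 in the libraries labelled SRMS shRNA and 19.5, 16.0 and 17.4 with the vector (log2 fold change -0.43, limma adjusted p = 0.00137). COL4A5 had 9.63, 8.80 and 7.83 against 11.04, 11.4 and 9.90 with the vector (log2 fold change -0.29, limma adjusted p = 0.0219). The groups of COL4A5 were narrowly apart. Its call was lost without SRMS shRNA replicate 2 or 3 (limma adjusted p = 0.0512 and 0.0851) and without vector replicate 1 or 2 (0.0602 and 0.0858). The COL4A5 difference was also smaller and not called under median scaling (-0.13, limma adjusted p = 0.24), quantile scaling (-0.14, 0.196) and after removal of the length and GC trend under the block (-0.11, 0.239), and not called with replicates 2 and 3 averaged (0.0769). COL4A6 stayed lower under median scaling (-0.27, limma adjusted p = 0.0143). The ratio of COL4A5 to COL4A6 per kilobase averaged 0.692 ± 0.0523 in the libraries labelled SRMS shRNA and 0.629 ± 0.0875 with the vector (SD, n = 3 each; exact permutation p = 0.3).

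Type VI collagen, which forms beaded microfibrils from 3 different chains, was abundant, and its COL6A3 chain moved apart from the others. COL6A3 had 199.2, 182 and 180 in the libraries labelled SRMS shRNA and 250, 234 and 236 with the vector (log2 fold change -0.36, limma adjusted p = 8.94e-05). COL6A1 had 318, 356 and 352 against 312, 347 and 349 with the vector, with a 95% interval of the log2 fold change from -0.09 to 0.15. COL6A2 had 329, 364 and 366 against 325, 363 and 368 with the vector (interval -0.12 to 0.13). Under median scaling COL6A1 (0.19, limma adjusted p = 0.0184) and COL6A2 (0.16, 0.0346) were called higher, and after removal of the length and GC trend under the block COL6A2 was called lower (-0.06, 0.00856). COL6A3 stayed lower under those 2 settings, at -0.20 and -0.15. Replicate 1 was lowest in both groups for COL6A1 and COL6A2 and highest for COL6A3. The ratio per kilobase of COL6A2 to COL6A1, neighbours on chromosome 21, was 1.27, 1.25 and 1.27 in the libraries labelled SRMS shRNA and 1.28, 1.28 and 1.29 with the vector. These groups did not overlap either (exact permutation p = 0.1), and the difference was -0.02 on the log2 scale.

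Among the collagens that decorate or anchor fibrils, COL12A1 fell and several others rose. COL12A1, the fibril-associated type XII chain (ENSG00000111799, chr6:75084326-75206051, minus strand), had 150, 133 and 133 in the libraries labelled SRMS shRNA and 264, 243 and 241 with the vector. No library labelled SRMS shRNA came near a vector library, and the log2 fold change was -0.85 (SE 0.0544, limma adjusted p = 1.30e-06). COL12A1 moved to -0.69 under median scaling and to -0.60 after removal of the length and GC trend under the block, still called lower in both. COL7A1, which forms the anchoring fibrils under epithelia (ENSG00000114270, chr3:48564073-48595267, minus strand), had 13.8, 14.9 and 16.1 against 8.70, 6.57 and 6.83 with the vector. Its log2 fold change was 0.97 (SE 0.107, limma adjusted p = 3.46e-05), or a ratio of means of 2.02.

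COL9A2, a type IX chain, had 1.53, 1.59 and 1.57 in the libraries labelled SRMS shRNA and 0.870, 0.982 and 0.697 with the vector (log2 fold change 0.62, limma adjusted p = 0.00133). COL9A3, its partner, had 6.86, 7.56 and 6.43 against 6.79, 6.46 and 6.43, and did not pass (limma adjusted p = 0.493), though it was called higher under median scaling (0.23, limma adjusted p = 0.0372). Fibril-associated COL16A1, the multiplexin COL18A1, whose end fragment is endostatin, and the transmembrane COL13A1 rose by 0.30, 0.24 and 0.22 on the log2 scale. Exons of COL18A1 overlap those of SLC19A1 on the other strand over 16.4% of their length, and the strand setting of the counting is not given in the sources used here. COL20A1 also passed, from 14, 15 and 22 reads in the libraries labelled SRMS shRNA and 1, 3 and 10 with the vector, and was the only called gene among 16 that stayed under 1 in every library.

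**Figure D3:**
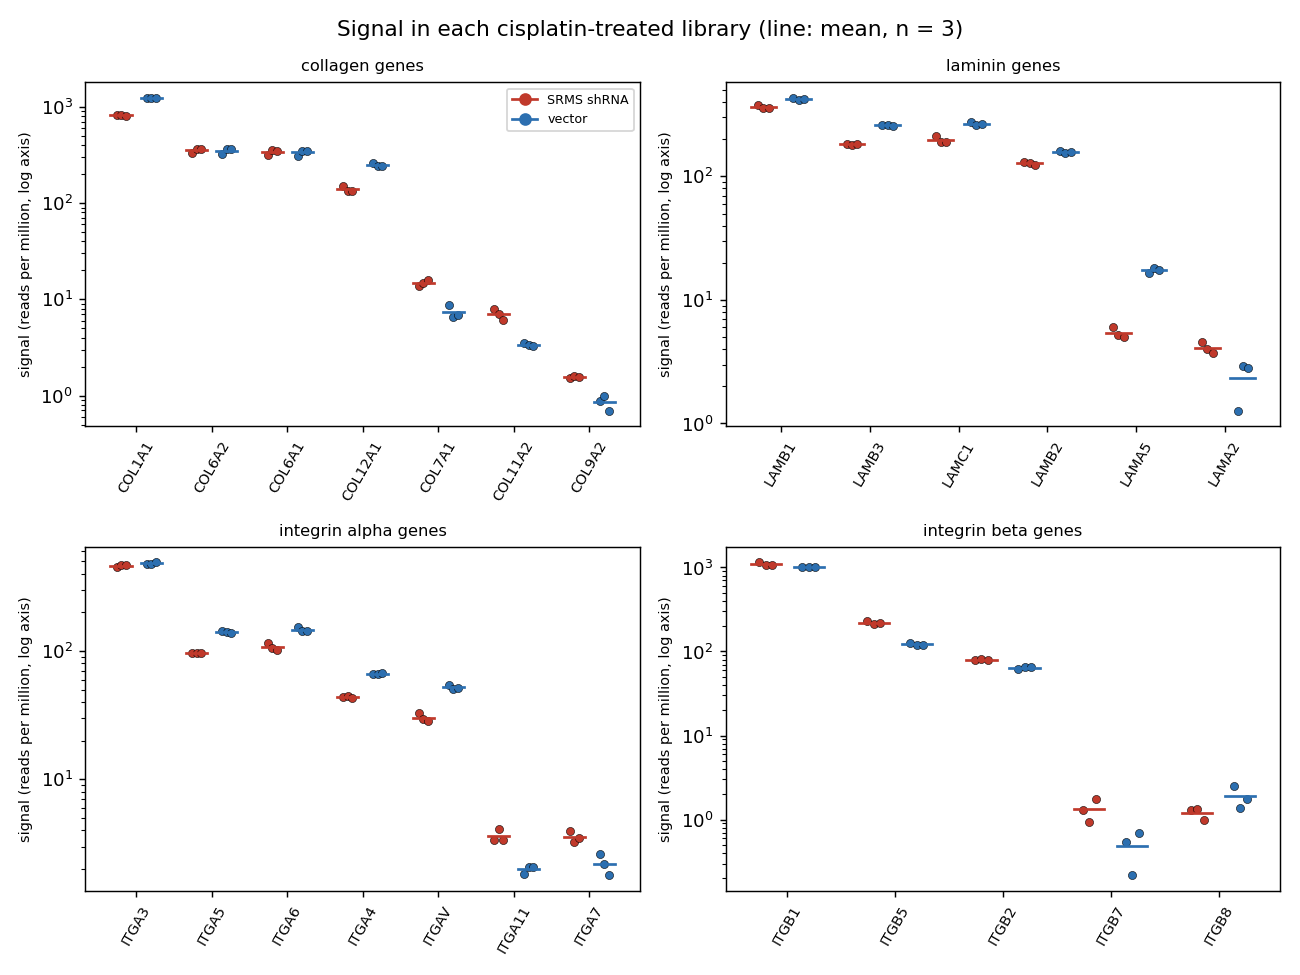
Signal (reads scaled as for CPM, log axis) in each of the 6 libraries for the genes with the largest called differences or the highest levels per kilobase in each family; lines are means of 3. The 3 COL1A1 values near 816 in the libraries labelled SRMS shRNA lie below the 3 near 1239 with the vector, LAMA5 and ITGB5 are separated by wide gaps in opposite directions, and COL6A1, COL6A2 and ITGA3 nearly coincide.

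Laminin chains fell in most cases, at a share near that of the longest 20% of all genes, and the alpha chains diverged. LAMA5, the alpha chain of the laminins of mature basement membranes (ENSG00000130702, chr20:62307955-62367312, minus strand), had 6.06, 5.20 and 5.02 in the libraries labelled SRMS shRNA and 16.5, 18.3 and 17.5 with the vector. LAMA5 thus fell to a ratio of means of 0.312, with no overlap of the groups (log2 fold change -1.60, SE 0.0867, limma adjusted p = 5.27e-07). After removal of the length and GC trend under the block it was -1.48. LAMA4, a chain typical of endothelium and mesenchyme, was far more abundant and had 145, 136 and 135 against 170, 168 and 166 with the vector (log2 fold change -0.27, limma adjusted p = 0.00017). LAMA4 moved to -0.11 under median scaling and to -0.07 after removal of the length and GC trend under the block, still called lower in both (limma adjusted p = 0.0189 and 0.0122). The ratio of LAMA4 to LAMA5 per kilobase was 42.6, 46.5 and 47.6 in the libraries labelled SRMS shRNA and 18.3, 16.3 and 16.8 with the vector (exact permutation p = 0.1). LAMA2, the alpha chain of muscle and nerve laminin, rose with 4.56, 4.04 and 3.74 against 1.27, 2.90 and 2.79 with the vector (log2 fold change 0.77, limma adjusted p = 0.0121). Vector replicate 1 was the low one for LAMA2, and without it the log2 fold change was 0.46 (limma adjusted p = 0.00949).

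The beta and gamma chains that join LAMA4 and LAMA5 were lower as well. LAMC1, the most widely used gamma chain, had 214, 190 and 188 in the libraries labelled SRMS shRNA and 277, 261 and 263 with the vector (log2 fold change -0.43, limma adjusted p = 5.07e-05). LAMB2 had 130, 129 and 124 against 161, 155 and 157 with the vector (log2 fold change -0.30, limma adjusted p = 5.12e-05). LAMB1, the most abundant laminin chain per kilobase, had 379, 359 and 361 against 432, 413 and 420 with the vector (log2 fold change -0.20, limma adjusted p = 0.000636). LAMC1 and LAMB2 stayed lower but moved to -0.27 and -0.15 under median scaling and to -0.22 and -0.20 after removal of the length and GC trend under the block. The LAMB1 call was lost under median scaling (-0.04, limma adjusted p = 0.267) and after removal of the length and GC trend under the block (-0.04, limma adjusted p = 0.094).

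LAMB3 and LAMA3, a beta and an alpha chain of epithelial laminin that assemble together, gave different results. LAMB3 had 183, 180 and 184 in the libraries labelled SRMS shRNA and 263, 261 and 256 with the vector (log2 fold change -0.51, SE 0.0312, limma adjusted p = 9.46e-07). LAMA3 had 6.86, 5.47 and 6.49 against 6.79, 5.72 and 6.08 with the vector (95% interval of the log2 fold change -0.22 to 0.25). The LAMA3 groups overlapped, but after removal of the length and GC trend under the block LAMA3 was called higher (0.23, limma adjusted p = 0.0319). Per kilobase the ratio of LAMB3 to LAMA3 was 72.5 ± 8.17 in the libraries labelled SRMS shRNA and 104 ± 8.63 with the vector (SD, n = 3 each; exact permutation p = 0.1).

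The 3 most abundant integrin beta genes per kilobase were higher. ITGB5, which pairs with ITGAV as a receptor for vitronectin (ENSG00000082781, chr3:124761948-124901418, minus strand), had 228, 213 and 219 in the libraries labelled SRMS shRNA and 126, 118 and 119 with the vector. The log2 fold change was 0.85 (SE 0.0401, limma adjusted p = 2.31e-07), and every library labelled SRMS shRNA lay far above every vector library. ITGB2, the beta subunit of leukocyte integrins, had 78.4, 82.2 and 79.0 against 61.8, 65.8 and 65.4 with the vector (log2 fold change 0.31, limma adjusted p = 0.00013). An alpha partner of ITGB2, ITGAX, stayed under 1 in every library and did not pass (log2 fold change 0.42, limma adjusted p = 0.0687). Of the alternatives, 8 called ITGAX higher, edgeR and DESeq2 among them (adjusted p = 0.029 and 0.0456). Of 5 integrin genes outside the symbol rule, ITGAM and ITGAL were not measured, and ITGAD and ITGA2B stayed under 1 in every library. ITGAE, which pairs with ITGB7, averaged 57.3 in the libraries labelled SRMS shRNA and 51.5 with the vector. Of 8 leukocyte markers 4 were measured, 2 of them higher (CD14, which averaged 3.24 against 0.879 with the vector, and LYZ), and their part in the ITGB2 result was not tested.

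ITGB1, the common beta subunit (ENSG00000150093, chr10:32900319-33005792, minus strand), had 1146, 1074 and 1072 in the libraries labelled SRMS shRNA and 1026, 1001 and 1015 with the vector. The groups did not overlap, but the log2 fold change was only 0.11 (SE 0.0361, limma adjusted p = 0.022), and with quantile scaling it was -0.01. The call was lost without vector replicate 2 or 3 (limma adjusted p = 0.0907 and 0.0655). It was lost as well with replicates 2 and 3 averaged (limma adjusted p = 0.117) and with no mean-variance trend (0.0861). Per kilobase ITGB1 made up 79.2% of the summed beta level in the libraries labelled SRMS shRNA and 84.7% with the vector. ITGB7 and ITGB8 were near 1 in signal, and ITGB4 (log2 fold change 0.25) and ITGB3 (0.01), which also stayed low, did not pass. ITGB4 was called higher under median scaling (0.41, limma adjusted p = 0.0243), with array weights (0.35, 0.025), after removal of the length and GC trend under the block (0.34, 0.0401) and without replicate 1 of both groups (0.40, 0.0372). ITGB7 passed toward higher values (log2 fold change 0.91, limma adjusted p = 0.00405), but 42.1% of its exon bases overlap ZNF740 on the other strand, so its reads are uncertain. Of the exon bases of ITGB3, 51.6% overlap AC068234.1 on the same strand, so its few reads are uncertain too. ITGB8 passed toward lower values (-0.46, limma adjusted p = 0.04), a call lost without vector replicate 1 or 3 (limma adjusted p = 0.151 and 0.0772) and without SRMS shRNA replicate 2 or 3 (0.0607 and 0.134). The ITGB8 call was lost as well under median scaling (-0.30, limma adjusted p = 0.145), after removal of the length and GC trend under the block (-0.17, 0.316), without replicate 1 of both groups (0.0882), with replicates 2 and 3 averaged (0.0529), with no mean-variance trend (0.0673), and by edgeR (0.0556) and DESeq2 (0.0511).

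Of the 12 integrin alpha genes, the 5 that fell included 4 of the 5 with the highest level per kilobase. ITGAV, which binds the arginine-glycine-aspartate motif (ENSG00000138448, chr2:186590065-186680901, plus strand), had 32.7, 29.8 and 28.5 in the libraries labelled SRMS shRNA and 54.8, 50.3 and 51.7 with the vector (log2 fold change -0.78, SE 0.0589, limma adjusted p = 3.34e-06). ITGAV moved to -0.62 under median scaling and to -0.50 after removal of the length and GC trend under the block, still called lower in both. ITGA5, the fibronectin receptor subunit, had 96.1, 95.8 and 96.2 against 143, 141 and 139 with the vector (-0.55, limma adjusted p = 9.05e-07). ITGA4, which binds fibronectin and VCAM1, had 44.2, 44.8 and 42.8 against 65.7, 65.7 and 67.3 with the vector (-0.59, limma adjusted p = 1.88e-06). In all of these the lowest vector library was well above the highest library labelled SRMS shRNA.

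The laminin receptors divided. ITGA6 had 115, 105 and 103 in the libraries labelled SRMS shRNA and 154, 142 and 144 with the vector (log2 fold change -0.44, limma adjusted p = 3.77e-05), and stayed lower at -0.28 under median scaling and -0.23 after removal of the length and GC trend under the block. ITGA3, the most abundant alpha gene per kilobase, had 453, 467 and 466 against 476, 481 and 490 with the vector. Its groups did not overlap, but the log2 fold change was only -0.06 (95% interval -0.13 to 0.01, limma adjusted p = 0.114). ITGA3 was called lower with the replicate block (limma adjusted p = 0.00886) and higher under median scaling (0.10, limma adjusted p = 0.0244), while quantile scaling made it lower (-0.18, limma adjusted p = 0.00042). ITGA7, a muscle laminin receptor subunit, was low and rose, with 3.94, 3.27 and 3.49 against 2.61, 2.18 and 1.79 with the vector (0.60, limma adjusted p = 0.00269).

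The collagen receptors were of low level, and did not share a direction. ITGA11, a receptor subunit for fibrillar collagen, rose with 3.36, 4.10 and 3.39 in the libraries labelled SRMS shRNA against 1.84, 2.07 and 2.07 with the vector (log2 fold change 0.72, limma adjusted p = 0.000331). ITGA2 fell with 12.2, 9.87 and 10.8 against 14.6, 13.6 and 14.3 with the vector (-0.36, limma adjusted p = 0.00384), and after removal of the length and GC trend under the block it was -0.09 (limma adjusted p = 0.281). ITGA1 (-0.11) and ITGA10 (-0.22) did not pass, with limma adjusted p of 0.237 and 0.107, but ITGA1 was called higher after that removal (0.18, limma adjusted p = 0.0437).

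Partner subunits differed in their ratio between the groups. The ratio of ITGAV to ITGB5 per kilobase was 0.0891, 0.0870 and 0.0811 in the libraries labelled SRMS shRNA and 0.270, 0.265 and 0.269 with the vector, and that of ITGA5 to ITGB1 averaged 0.0746 ± 0.00279 and 0.118 ± 0.00164 (SD, n = 3 each; exact permutation p = 0.1 for both). Summed per kilobase, the alpha genes came to 155, 156 and 154 in the libraries labelled SRMS shRNA and 185, 183 and 185 with the vector, whereas the beta genes came to 380, 359 and 359 against 320, 313 and 317. Collagens summed to 408 to 426 against 474 to 493 with the vector, and laminins to 176 to 185 against 224 to 231. None of these sums overlapped between groups, and a sum follows its most abundant members.

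**Figure D4:**
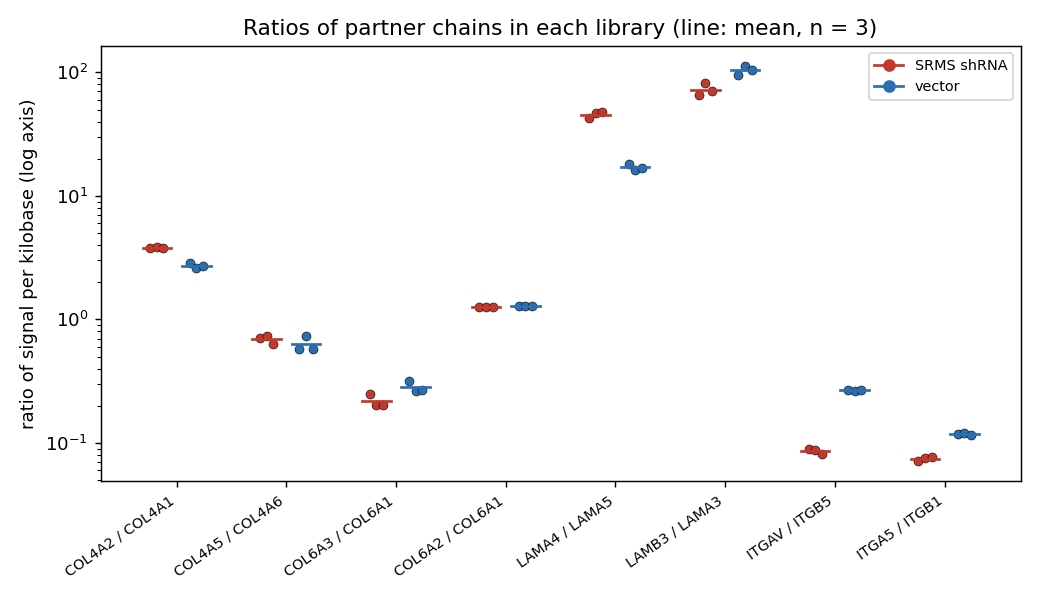
Ratios of signal per kilobase of 1 chosen transcript (log axis) between chains or subunits in each of the 6 libraries; lines are means of 3. ITGAV to ITGB5 shows values near 0.0857 with SRMS shRNA against 0.268 with the vector, LAMA4 to LAMA5 shows 45.5 against 17.1, and COL4A5 to COL4A6 overlaps between groups.

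Genes that fold, export and crosslink collagen moved in both directions. Of 32 measured, 7 rose and 10 fell, with a median log2 fold change of 0.03. SERPINH1, the collagen chaperone HSP47, fell to 175 ± 2.86 in the libraries labelled SRMS shRNA, against 351 ± 3.63 with the vector (SD, n = 3 each; ratio of means 0.499, limma adjusted p = 2.57e-08). LOX, which crosslinks collagen and elastin, averaged 604 ± 39.4 in the libraries labelled SRMS shRNA and 371 ± 25.7 with the vector (log2 fold change 0.70, limma adjusted p = 5.31e-06). PPIB, a prolyl isomerase of the collagen folding complex, was at 0.45 and P3H2, a prolyl 3-hydroxylase, at -0.56, both past the threshold. PPIB moved to 0.16 after removal of the length and GC trend under the block and stayed called.

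Of 34 other matrix proteins measured, 8 rose and 13 fell (median -0.01). SPARC, a collagen-binding glycoprotein, was at 0.63, the matricellular CCN1 at -0.48, EFEMP1 at -0.59 and agrin (AGRN), a laminin-binding proteoglycan, at -0.38, all past the threshold. Of 44 measured genes of the integrin adhesion complex, which couples the cytoplasmic tails to actin, 11 rose and 22 fell (median -0.09, or 0.00 after removal of the length and GC trend under the block and 0.07 under median scaling). ACTN4, an actin crosslinker, was at -1.68, the scaffold GIT1 at -1.36, the kinase SRC at -0.95 and the tensin TNS2 at -0.78. Among 16 other matrix receptors 8 rose and 3 fell (median 0.13). DAG1, the laminin receptor dystroglycan, was at -1.18, CD151, a tetraspanin partner of laminin-binding integrins, at 0.46, SDC4 at 0.42 and the laminin-binding ribosomal protein RPSA at 0.25. After removal of the length and GC trend under the block CD151 moved to 0.22, and RPSA to 0.02, where its call was lost (limma adjusted p = 0.325). Each of these gene lists is read against 26.6% higher and 30.2% lower over all genes.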

How the data were processed

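The values come from 1 deposited table of 14042 rows. The authors' deposited signal, though named log CPM, is linear, in CPM-like units of whole reads over an effective library size. Per the submitters' processing notes FastQC, cutadapt, HISAT2, StringTie and edgeR were used with GRCh38, their versions and any low-count filter being not given in the sources used here. Expressed in single reads, the values were whole to within 0.1 for at least 99.99% of values in each library.

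Leaving out 13 Y copies of pseudoautosomal genes gave 14029 genes, 14007 with a symbol. Coordinates and lengths are from GENCODE release 29, with 1 transcript per gene (coding, APPRIS principal, longest). limma 3.58.1 (R 4.3.3) with a mean-variance trend was run on log2(signal + 0.5) with p-values adjusted by Benjamini-Hochberg across the table, called below 0.05, after a test on simulated data. The simulated libraries were independent and had no replicate or length effect, so that test does not vouch for the calls in these data. The genes named are SRMS and, in each family, the 5 largest called differences with a mean signal of at least 1 in the higher group, the 3 highest levels per kilobase and their partner chains, with up to 4 genes by adjusted p in each further list; others were chosen after their values were seen. The values of 1 of the 62 genes are not reported here; it stays in the counts, medians and sums. The symbol rule, lists and tests were chosen with earlier results of these data known.

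Across genes, same-numbered libraries deviated together from their group means (r = 0.309, 0.106 and 0.120). Replicates 2 and 3 correlated about as much across numbers (0.113 and 0.114). The values thus match replicate 1 between the groups but do not match numbers 2 and 3. The main fit and the permutation tests did not use the numbers as pairs. The chi-square per gene of replicates 2 and 3, for genes of 200 to 5000 reads, was 1.65 with SRMS shRNA and 1.79 with the vector. Pairs with replicate 1 had 3.55 to 5.07. For genes of at least 5000 reads it was 2.63 with SRMS shRNA and 2.47 with the vector, against 25.3 to 44.6 for pairs with replicate 1. Replicates 2 and 3 were thus far closer to each other than to replicate 1, while the p-values treat the 3 libraries as independent. No library was dropped, and 1 alternative averages replicates 2 and 3. The other alternatives were quantile or median scaling, genes with a mean of at least 1, pseudocounts of 1 and 0.1, no trend, array weights, the replicate block, the block with the length and GC trend removed, libraries left out, and edgeR 4.0.16 and DESeq2 1.42.0 on recovered reads.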

Additional observations from a re-analysis of the deposited data

How the results depend on the processing

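Counts of calls stayed within 1.5 times the reported ones except under median scaling, where members called higher numbered 25 and matrix chains called higher 16, and with a minimum absolute log2 change of 1. That minimum left 292 genes, 0 members higher and 1 lower, with 0 and 1 matrix chains and 0 and 0 integrins. Single libraries left out gave 6895 to 8324 genes called, 15 to 18 members higher and 16 to 19 lower, 10 to 12 and 11 to 12 matrix chains, and 5 to 7 integrins in each direction. With the replicate block 17 members were higher and 21 lower; beside the genes already given, ITGAX was then called higher (0.42, limma adjusted p = 0.0312). Of 28 genes with a call that were named by the rule or are of type IV collagen, 23 kept direction and call in the settings that measured them. The others were COL4A5, ITGA2, ITGB1, ITGB8 and LAMB1. The called genes COL5A2, COL27A1, COL16A1, COL18A1, COL13A1 and COL20A1 were not part of this count. Family medians ranged from -0.057 to 0.163 for collagens, -0.292 to -0.052 for laminins, -0.29 to -0.004 for integrin alpha and 0.09 to 0.41 for integrin beta genes. On recovered reads edgeR gave 8058 genes called, all genes counted, and DESeq2 7375; members called higher and members called lower were 18 and 17 with edgeR and 17 and 17 with DESeq2.

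The sign of genes near 0 turned, and the cause was not tested. Median scaling gave COL5A1 0.094, COL11A1 0.0197, COL4A1 0.0387, ITGA1 0.0489 and ITGA3 0.0982. Quantile scaling gave COL6A1 -0.0296, COL6A2 -0.0572, ITGA1 0.0352, ITGB1 -0.0099 and ITGB3 -0.1083. The block after removal of the length and GC trend gave COL5A1 0.094, COL11A1 0.077, COL4A1 0.0398, COL6A2 -0.0607 (limma adjusted p = 0.00856), COL9A3 -0.0883, ITGA1 0.1846 (limma adjusted p = 0.0437) and ITGA3 0.0107. Array weights gave COL6A2 -0.0001, and replicates 2 and 3 averaged gave ITGB3 -0.0125. With libraries left out, singly or replicate 1 in both groups, values ran from -0.227 to 0.0329 for COL11A1, -0.027 to 0.0775 for COL6A1, -0.0536 to 0.0527 for COL6A2, -0.0969 to 0.1682 for ITGB3 and -0.0488 to 0.102 for LAMA3. Genes counted in few reads, such as COL1A2 and COL3A1, are limited by depth.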
